A study of Mus musculus with 10 samples.

Results

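Chromatin accessibility was examined at 9 genes of cytokine signalling, the transcription factor genes Stat3, Stat4, Stat5a, Stat5b and Stat6 and the feedback inhibitor genes Socs1, Socs2, Socs3 and Cish. A region of the accessibility table was assigned to a gene when it overlapped the gene body or lay within 50 kb of its annotated start, which gave 156 of the 94823 regions. The 4 groups were iNKT1 and iNKT2 cells sorted from the thymus of BALB/c mice (n = 2 and n = 3 libraries) and of SKG mice (n = 2 and n = 3). SKG mice carry a hypomorphic mutation of Zap70, a kinase next to the T cell receptor, on the BALB/c background, so their T cell receptor signals weakly in every T cell and not in iNKT cells alone. The sort took CD27+ CD122+ cells as iNKT1 and CD27+ CD122- cells as iNKT2, and the labels give no age. The labels do not say that the libraries of a group came from separate animals, so p-values measure the spread between these samples, which may be technical.

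Invariant natural killer T (iNKT) cells are T cells with an invariant receptor for lipids on CD1d. iNKT1 cells make interferon-γ and iNKT2 cells make interleukin-4. Cytokine receptors activate Jak kinases, which phosphorylate Stat proteins. The Stat dimers then enter the nucleus and bind palindromes of TTC and GAA. Stat4 acts after interleukin-12 and Stat6 after interleukin-4, Stat5a and Stat5b act after interleukin-2, interleukin-7 and interleukin-15, and Stat3 acts after interleukin-6, interleukin-21 and interleukin-23. Cish and the Socs genes are themselves Stat targets, and their SH2 domain proteins shut the receptor complex down again. ATAC-seq counts transposase insertions in open DNA, which is a measure of accessibility and not of transcription.

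Levels are CPM, insertions scaled to 1000000 inside the listed regions after TMM scaling. The 10 libraries held 14988590 to 36342635 such insertions, and the median region held 40 to 120. A region was called when the adjusted p of edgeR's quasi-likelihood test (Benjamini-Hochberg, all 94823 regions) was under 0.01 and it changed at least 4-fold. As a check of the sort, insertions were summed over the regions at marker genes. All 6 iNKT1 markers, Il2rb of the CD122 gate among them, were lower in iNKT2 without overlap of the libraries in both genotypes, and their summed level was 2040 to 2100 CPM in BALB/c iNKT1 and 798 to 847 CPM in BALB/c iNKT2. Of 15935 protein-coding genes with 3 or more regions, 61.6% had such lower sums in BALB/c and 47.4% in SKG. Higher sums without overlap were found at 15.0% and 16.3%, so a lower sum alone is common. Of 5 iNKT2 markers, Il17rb, Ccr7 and Slamf6 were higher in iNKT2 in both genotypes, Zbtb16 overlapped, and Il4 was lower in BALB/c iNKT2. Of the iNKT17 markers, Il17a and Il23r were higher in iNKT2 in both genotypes, and Il17a had 5.95 ± 1.05 CPM (SD, n = 2) in BALB/c iNKT1, 68.2 ± 2.64 (SD, n = 3) in BALB/c iNKT2 and 40.5 ± 9.13 (SD, n = 3) in SKG iNKT2. Rag1 and Rag2 of the 4 double-positive thymocyte markers were also higher in iNKT2 in both genotypes, and Rag2 had 4.16, 24.6 and 8.99 CPM in the same 3 groups. Cd8a and Cd8b1, the other two, were instead highest in SKG iNKT1, at 7.26 and 17.2 CPM for Cd8a and 7.97 and 19.4 CPM for Cd8b1. These lay above both BALB/c iNKT1 libraries (4.49- and 2.51-fold in the mean) and above every SKG iNKT2 library (6.75- and 3.02-fold). The 4 genes summed to 60.5 to 67.4 CPM in BALB/c iNKT1, 71.7 to 91.5 in SKG iNKT1, 109 to 135 in BALB/c iNKT2 and 85.1 to 96.8 in SKG iNKT2. Lyz2, a myeloid gene, was low but higher in iNKT2 without overlap, from a mean of 0.865 to 3.57 CPM in BALB/c (4.12-fold) and from 0.449 to 2.24 CPM in SKG (4.99-fold). Of the other myeloid genes, Csf1r was higher in BALB/c iNKT2 and Cd14 lower in both genotypes, and the 3 together had 341 to 356 CPM in iNKT1 and 266 to 347 CPM in iNKT2. The T cell genes Cd3e, Cd3d and Lck were all lower in iNKT2 in both genotypes, with sums of 956 to 1010 CPM in iNKT1 and 528 to 848 CPM in iNKT2. The part that other cells took in the changes below was not tested, and a smaller share of open cells cannot be told apart from less open chromatin in each.

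The 156 regions were 300 to 1901 bp wide. Of these, 24 belonged to more than 1 gene, because Stat5b, Stat5a and Stat3 are neighbours on chromosome 11 between 100780731 and 100939540. Socs1 had 33 regions, Stat5a 24, Stat5b 24, Stat4 23, Cish 22, Socs3 18, Stat6 17, Stat3 12 and Socs2 10. The nearest protein-coding start was that of a member for 100 of the regions, so the others may belong to neighbouring genes. A gamma-activated site (TTCNNNGAA, its own reverse complement), the motif that most Stat dimers bind, was found in 26 regions. Among regions 321 to 581 bp wide, 20% of the 80 member regions and 11.2% of all 50414 regions held it. Such a match is a description of the letters and not a measured binding site.

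Cish and Socs2 held the sites in tandem, and Socs3 held separate ones. They are shown because the same regions are compared below, with the sites in capitals, on the plus strand of GRCm38. An NFAT core (TGGAAA on either strand) overlaps a site in Cish pair 1 and in the Socs2 pair. The Cish pairs lie at chr9:107296659-107296678 and chr9:107296764-107296789, at and after the RefSeq start of Cish (107296659). The Socs2 pair lies at chr10:95416904-95416923 in the start region of Socs2, and the Socs3 site at chr11:117969504-117969529, before the RefSeq start of Socs3 (minus strand, 117969366).
Cish pair 1: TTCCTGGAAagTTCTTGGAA
Cish pair 2: TTCTAGGAAgatgaggcTTCCGGGAA
Socs2 pair: TTCCAGGAActTTCCAGGAA
Socs3 upstream site: cccctcccTTCTAAGAAggctggttt
The stretch before Socs1 (minus strand) at chr16:10785976-10786189 held 1 gamma-activated site, the first in capitals, and 3 palindromes of TTC and GAA with 4 bases between them, the spacing that Stat6 prefers.
Socs1 upstream: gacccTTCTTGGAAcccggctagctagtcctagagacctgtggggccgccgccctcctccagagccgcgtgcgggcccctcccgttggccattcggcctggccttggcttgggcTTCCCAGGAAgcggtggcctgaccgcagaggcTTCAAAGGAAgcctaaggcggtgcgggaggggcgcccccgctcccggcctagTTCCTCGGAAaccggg
Of 32851 RefSeq promoters of 300 bases, 8.30% held a gamma-activated site. Among the 11 RefSeq starts matched to 8 of the members, those of Cish and Socs3 held it in that window.

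The iNKT1 and iNKT2 subsets were compared first, within each genotype. In BALB/c mice, 24 of the 156 regions (15.4%) were lower in iNKT2 and 5 (3.21%) were higher. Over all 94823 regions the shares were 6.36% lower and 15.5% higher. In SKG mice 14 regions (8.97%) were lower and 6 (3.85%) higher, against 6.96% and 10.2% over all regions. In each of these calls the libraries of the compared groups did not overlap. Of the lower regions, 13 were called in both genotypes, 54.2% of the BALB/c list and 92.9% of the SKG list, and 3 of the higher regions were shared. The comparisons have no library in common, but both came from the same fit with a shared estimate of the spread. The share of all called regions that were called in both genotypes was not counted. Stat4 alone held 12 of the 24 lower regions in BALB/c and 8 of the 14 in SKG. Without Stat4, 9.02% of 133 regions were lower in BALB/c iNKT2 and 4.51% in SKG iNKT2. The higher calls lay at Stat5b, Stat5a, Stat3 and Stat6, and none at Cish or a Socs gene. With library totals in place of TMM factors, BALB/c had 9 higher and 18 lower calls, and 1 of the higher calls lay at Stat4 and 1 at Socs3. The background moved as well: all 94823 regions then had 17104 higher and 4750 lower calls, against 14725 and 6029 with TMM factors.

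**Figure D1:**
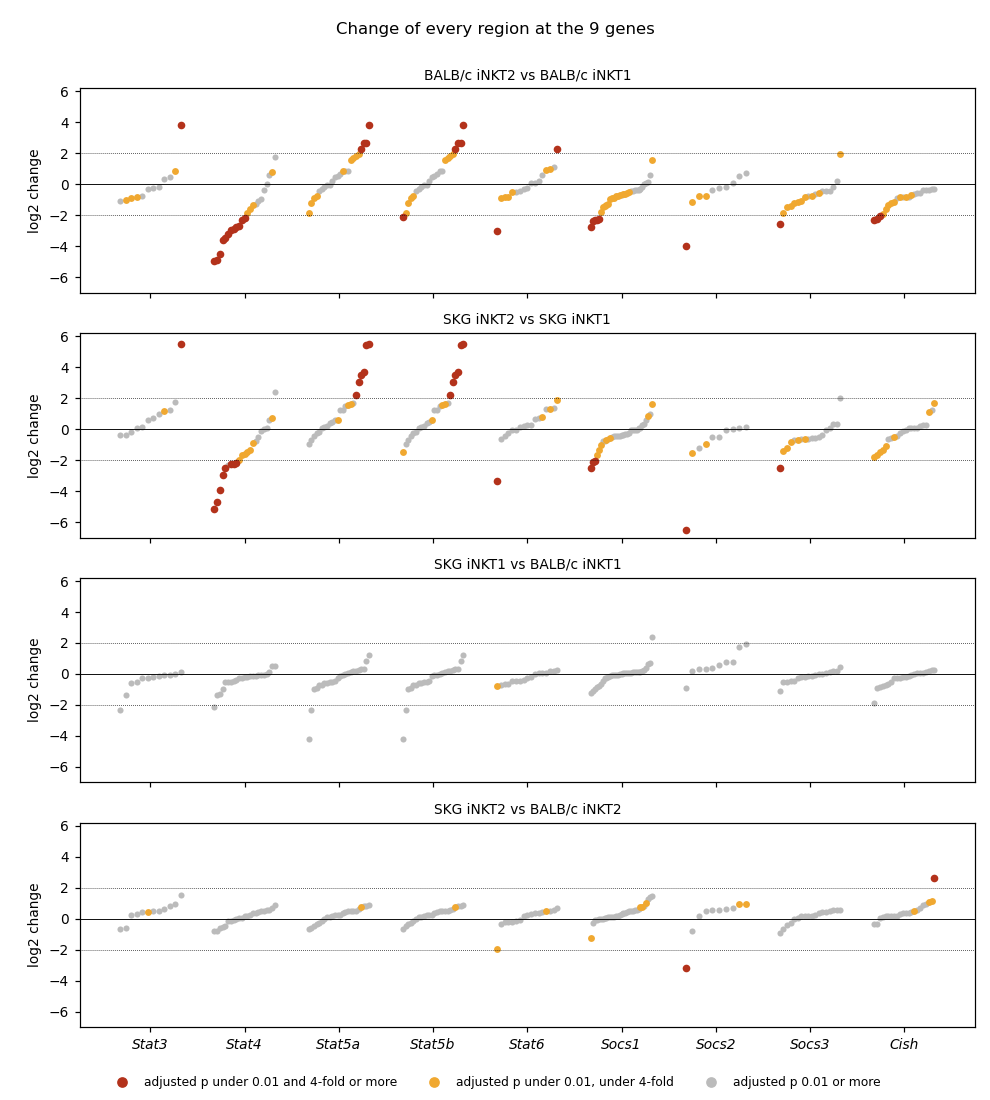
Log2 change (y axis) of each region at the 9 genes (x axis, 1 point per region, sorted within a gene) in the 4 pairwise comparisons, with dotted lines at 4-fold. Red points passed both thresholds, with 5 above and 24 below 0 in BALB/c iNKT2 against iNKT1, and regions that Stat3, Stat5a and Stat5b share are drawn at each of them.

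Over the 156 regions the median log2 change was -0.65 (BALB/c) and -0.20 (SKG), beside 0.06 and 0.14 over all regions. Regions that hold a protein-coding start had a median of -0.35 in BALB/c and -0.14 in SKG. Part of the members' regions are of that kind: 14 held a start, of a member or of a neighbour, and all 14 had a negative estimate in BALB/c iNKT2 (median -0.78). With an adjusted p under 0.01 and no demand on fold, 73 member regions were lower and 15 higher in BALB/c iNKT2 (46.8% and 9.62%, against 23.4% and 25.7% of all regions). In SKG iNKT2 the numbers were 39 and 18 (25% and 11.5%, against 17.6% and 18.4%). Of all regions that hold a protein-coding start, 38.2% were lower and 7.08% higher in BALB/c, and 14.0% and 7.98% in SKG. The member counts moved with single libraries. Without BALB/c iNKT1 replicate 1 the BALB/c numbers were 37 lower and 8 higher, without BALB/c iNKT1 replicate 2 they were 54 and 5, and with library totals 44 and 17. Without SKG iNKT1 replicate 2 the SKG numbers were 26 and 11.

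Stat4, the factor that carries the interleukin-12 signal to the Ifng gene, closed most widely in iNKT2. Of its 23 regions, 12 were lower by at least 4-fold in BALB/c iNKT2 and 8 in SKG iNKT2, and none was called higher (1 in BALB/c with library totals or without BALB/c iNKT2 replicate 3, and 1 in SKG without SKG iNKT1 replicate 1). The lower calls in SKG were 5 without SKG iNKT2 replicate 2. After omission of the regions of low mean insertions there were 7 in BALB/c and 4 in SKG. Summed over the gene, BALB/c iNKT1 had 376 and 387 CPM, and SKG iNKT1 had 336 in both libraries. The sums were 125, 104 and 102 CPM in BALB/c iNKT2 and 123, 118 and 127 CPM in SKG iNKT2. Every iNKT1 library was therefore above every iNKT2 library, by 3.46-fold in the mean for BALB/c and 2.74-fold for SKG. Locus sums were lower in iNKT2 without overlap at 61.6% of 15935 protein-coding genes with 3 or more regions in BALB/c and at 47.4% in SKG, so the direction alone is common. Of the 9 genes, 7 had such lower sums in BALB/c and 5 in SKG, and Stat5a alone had a higher one, in SKG (background 15.0% in BALB/c and 16.3% in SKG).

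The region with the largest fall lay in an intron at chr1:52035407-52035738. It had 31.3 and 34.8 CPM in BALB/c iNKT1 and 28.2 and 26.4 CPM in SKG iNKT1. In BALB/c iNKT2 it had 2.26, 0.503 and 0.412 CPM, and in SKG iNKT2 1.16, 0.597 and 0.337 CPM. This intronic region was thus open in all 4 iNKT1 libraries and low in all 6 iNKT2 libraries. The log2 change was -4.94 ± 0.434 (SE, adjusted p = 2.1e-07) in BALB/c and -5.13 ± 0.467 (SE, adjusted p = 4.0e-07) in SKG. Its neighbour at chr1:52034657-52035299 was the most accessible of the regions called in both genotypes. The neighbour had 63.6 and 62.2 CPM in BALB/c iNKT1 and 46.8 and 47.6 CPM in SKG iNKT1, against 5.71, 1.01 and 1.61 CPM in BALB/c iNKT2 and 2.79, 1.06 and 1.28 CPM in SKG iNKT2. Both regions were highest in replicate 1 among the iNKT2 libraries of each genotype, which still lay far below iNKT1.

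The central 300 bases of both are printed, as those of the region with the largest fall and of its more accessible neighbour. The first (chr1:52035423-52035722) held an AP-1 site (TGANTCA) and then a T-box motif (GGTGTGA, on the other strand), in capitals. It also held an NFAT core (on the other strand) before them and a palindrome of TTC and GAA with 4 bases between after them, both left in lower case. The second (chr1:52034828-52035127) held none of these 4, nor a Runx core (TGTGGTT) or a gamma-activated site. T-box and Runx strings were added to the motif list after the values at Stat4 had been seen.
Stat4 intron, largest fall: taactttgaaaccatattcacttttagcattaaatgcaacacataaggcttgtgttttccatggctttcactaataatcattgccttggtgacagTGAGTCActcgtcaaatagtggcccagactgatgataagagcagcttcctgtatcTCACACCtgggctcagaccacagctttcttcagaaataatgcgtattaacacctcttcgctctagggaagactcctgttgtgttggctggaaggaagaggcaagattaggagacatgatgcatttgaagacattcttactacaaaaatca
Stat4 intron, neighbouring region: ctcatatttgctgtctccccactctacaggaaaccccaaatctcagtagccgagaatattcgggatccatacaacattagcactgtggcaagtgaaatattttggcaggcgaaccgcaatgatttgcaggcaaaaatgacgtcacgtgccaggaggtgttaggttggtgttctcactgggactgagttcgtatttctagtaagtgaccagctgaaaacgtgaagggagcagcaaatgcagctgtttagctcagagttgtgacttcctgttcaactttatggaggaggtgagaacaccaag
On both strands, a T-box motif occurred in 3 of the 12 Stat4 regions lower in BALB/c iNKT2, and a Runx core in 2. Of all 23 Stat4 regions, 6 held the T-box motif and 4 the Runx core, so the lower regions were not richer in either. These Stat4 counts were taken over regions of any width. In regions 321 to 581 bp wide the T-box motif was found in 11.2% of member regions and 6.91% of all regions, the Runx core in 13.8% and 15.9%, and the AP-1 site in 18.8% and 13.3%.

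No region lay within 1 kb of the annotated 5′ end of Stat4 (chr1:51987148). RefSeq gives an inner start at 52008240, which lies in a 1274 bp region at chr1:52008054-52009327, chosen after its values were seen. This inner start region had 74.7 and 83.5 CPM in BALB/c iNKT1, and 69.1 and 68.2 CPM in SKG iNKT1. It fell to 13.6, 12.8 and 10.6 CPM in BALB/c iNKT2 (log2 change -2.68, adjusted p = 3.6e-08). SKG iNKT2 had 23.4, 13.4 and 14.8 CPM there (log2 change -1.98, adjusted p = 7.1e-07), just short of 4-fold. The Stat4 region with the highest mean level, at chr1:52019587-52020320, changed less, from 71.5 to 20.3 CPM in BALB/c (log2 change -1.82) and from 71.4 to 23 CPM in SKG (log2 change -1.64). At the 3′ end, an intronic region at chr1:52100548-52100898 was higher in iNKT2, from 18.9 to 32.7 CPM in BALB/c (log2 change 0.79, adjusted p = 5.7e-04), with 0.72 in SKG (adjusted p = 0.0019).

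**Figure D2:**
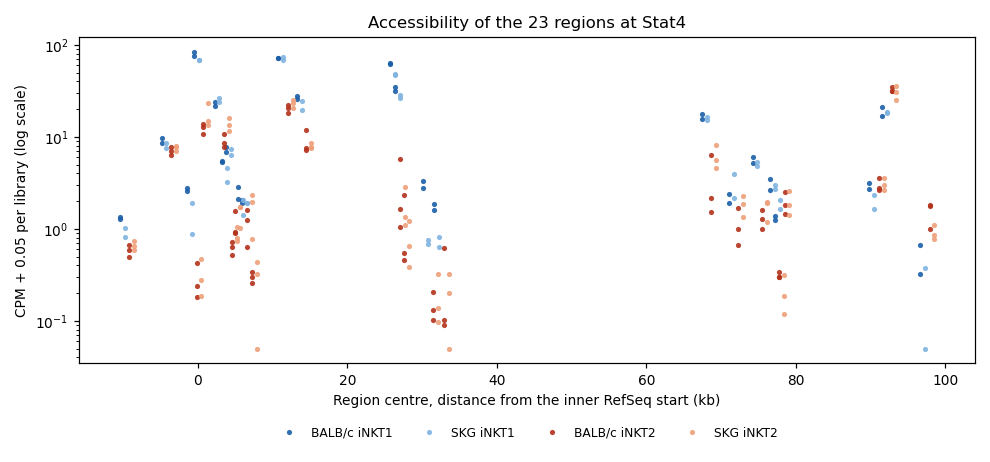
CPM plus 0.05 on a log axis (y) of the 23 regions at Stat4 in each of the 10 libraries, by distance of the region's centre from the inner RefSeq start in kb (x), with groups offset slightly. Over the paired intronic regions with the largest fall the iNKT1 libraries lie between 26.4 and 63.6 CPM and the iNKT2 libraries at 5.71 CPM or less, while toward the right end some regions have the iNKT2 libraries on top.

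Stat5b and Stat5a, which share nearly all their regions, held most of the higher calls. Of the 24 regions at Stat5b, 4 were called higher in BALB/c iNKT2 (16.7%, near the 15.5% of all regions) and 6 in SKG iNKT2 (25%, against 10.2%), and 1 was called lower in BALB/c only. With limma voom the BALB/c calls were 2 higher and 2 lower (TMM factors) or 2 and 1 (quantile normalization), and the SKG calls 4 higher. The called rises lay in introns. At chr11:100819571-100819985, in an intron of Stat5b, BALB/c iNKT1 had 1.55 and 1.59 CPM and BALB/c iNKT2 had 8.97, 10.7 and 10.5 CPM (log2 change 2.68 ± 0.272 SE). SKG iNKT1 had 0.835 and 1.22 CPM there and SKG iNKT2 had 14.2, 7.85 and 12.1 CPM (log2 change 3.47 ± 0.313 SE). Each iNKT2 library was above each iNKT1 library. Another region called in both genotypes, at chr11:100831407-100831706, rose from a mean of 0.385 to 1.88 CPM in BALB/c and from 0.225 to 2.80 CPM in SKG.

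The largest rise was at chr11:100891660-100892024, in an intron of Stat3 and inside the window of all 3 genes. It had 0.209 and 0.529 CPM in BALB/c iNKT1, against 5.61, 5.03 and 4.53 CPM in BALB/c iNKT2 (log2 change 3.85 ± 0.426 SE, adjusted p = 1.9e-06). In SKG iNKT1 the libraries held 2 insertions together, against 237 in SKG iNKT2, a ratio of 52.5 (95% exact interval 14.4 to 436, counting error only). No other region of Stat3 was called in either genotype.

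One Stat5b intron stood out for its values in iNKT1. At chr11:100841993-100842332, BALB/c iNKT1 had 1.16 and 2.69 CPM and SKG iNKT1 had 0.128 and 0.0642 CPM. BALB/c iNKT2 had 9.75, 4.15 and 4.29 CPM, and SKG iNKT2 had 7.07, 2.53 and 3.03 CPM. The region was highest in replicate 1 of both iNKT2 groups. From iNKT1 to iNKT2 it rose in BALB/c by 1.69 on the log2 scale (adjusted p = 0.0067), and in SKG by a ratio of 50.0 (95% exact interval 16.9 to 243). Between the iNKT1 groups it was 18.5-fold lower in SKG (95% exact interval 6.15 to 91.2, 3 against 100 insertions), with an adjusted p of 0.023, and the interaction had one of 0.078. With the replicate number as a block within iNKT2 both passed (adjusted p = 5.0e-05 and 0.0012).

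The lower call at Stat5b was chr11:100804374-100804847, in an intron near the 3′ end, which fell from 28.9 to 6.77 CPM in BALB/c (log2 change -2.09). It was lower in SKG as well (27.8 to 9.69 CPM, log2 change -1.5, adjusted p = 1.4e-05). The BALB/c change fell just short of 4-fold without BALB/c iNKT2 replicate 2 or 3 (log2 change -1.94 and -1.98) and with the replicate block (-1.98). The start regions of Stat5b and Stat3 were also lower in BALB/c iNKT2, though by less than 4-fold. The Stat3 start region, chr11:100939278-100940335, had 118 and 140 CPM in BALB/c iNKT1 and 70.7, 64.8 and 77.5 CPM in BALB/c iNKT2 (log2 change -0.86, adjusted p = 2.4e-05). The Stat5b start region, chr11:100849999-100850825, changed by -0.88 in BALB/c (adjusted p = 0.0015) and by -0.41 in SKG (adjusted p = 0.11). Summed over the locus, Stat5b had 193 and 186 CPM in BALB/c iNKT1 and 193, 157 and 152 CPM in BALB/c iNKT2, so the groups overlapped.

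**Figure D3:**
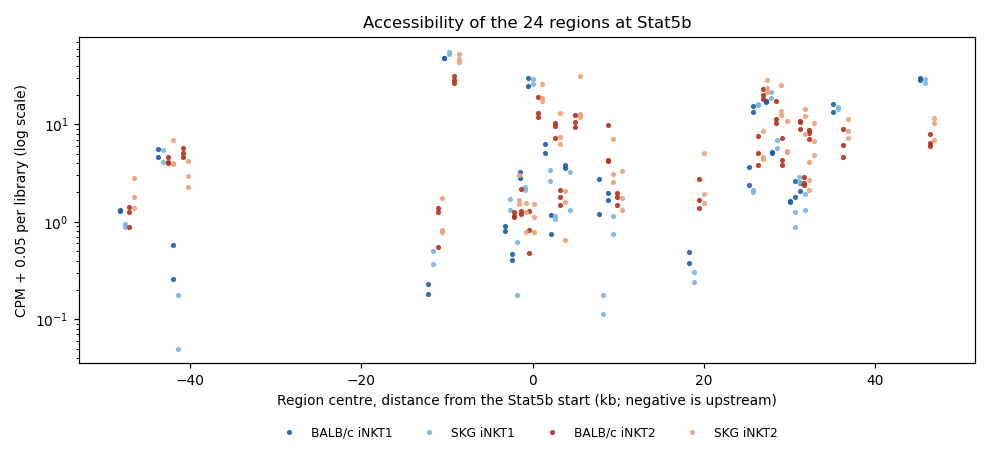
CPM plus 0.05 on a log axis (y) of the 24 regions in the Stat5b window in each of the 10 libraries, by distance of the region's centre from the Stat5b start in kb (x, negative upstream), with groups offset slightly. In the region farthest upstream of Stat5b that was called the iNKT2 libraries have 2.23 to 5.61 CPM and the iNKT1 libraries 0.529 CPM or less, while near the 3′ end, at the called fall, the iNKT1 libraries lie above the iNKT2 libraries.

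Stat6, the factor of the interleukin-4 receptor, had 1 called fall and 1 called rise among 17 regions in BALB/c iNKT2. Both lay over exons of Stat6. The fall, at chr10:127654974-127655694, went from 23.1 and 23.9 CPM in BALB/c iNKT1 to 3.98, 2.33 and 2.64 CPM in BALB/c iNKT2 (log2 change -2.98). It went from 28.1 and 24.6 CPM to 3.71, 1.56 and 2.16 CPM in SKG (log2 change -3.36). The rise, 15327 bp after the start at chr10:127658153-127658473, was called in BALB/c, from 0.956 and 0.309 CPM to 4.01, 2.78 and 2.93 CPM (log2 change 2.28, adjusted p = 6.1e-04). Without BALB/c iNKT1 replicate 2 this call was lost (log2 change 1.76, adjusted p = 0.014). SKG iNKT2 had 1.13, 0.918 and 0.270 CPM there, close to the 0.385 and 0.642 CPM of SKG iNKT1. Against BALB/c iNKT2 the SKG libraries were lower without overlap (log2 change -1.96 ± 0.403 SE, adjusted p = 0.0023). This change passed 4-fold with DESeq2 (-2.04), library totals (-2.09), quantile normalization (-2.0) and omission of the regions of low mean insertions (-2.03). It also did so with both replicate blocks (-2.05, and -2.03 within iNKT2) and without some single libraries. With limma voom and TMM factors, and in a fit of these groups alone, it was not called. The difference between the genotypes in the subset change was not past the threshold (interaction log2 -1.59, adjusted p = 0.27). The Stat6 start region, chr10:127642802-127643141, was lower in BALB/c iNKT2 (26.9 to 15.3 CPM, log2 change -0.82, adjusted p = 0.0013).

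At Cish and the Socs genes, 10 of 83 regions were called lower in BALB/c iNKT2 (12%, against 6.36% of all regions) and 5 in SKG iNKT2 (6.02%, near the 6.96% of all regions). Socs1, the inhibitor that binds Jak kinases directly, had 5 called falls among 33 regions in BALB/c (15.2%) and 3 in SKG (9.09%). The BALB/c number was 3 without BALB/c iNKT1 replicate 1 and 2 after omission of the regions of low mean insertions. The SKG number was 1 without SKG iNKT2 replicate 3 and with library totals or quantile normalization. Its regions at chr16:10768721-10769225 and chr16:10774694-10775253, both after the gene's 3′ end, were called in both genotypes. The first had 19.6 and 13.9 CPM in BALB/c iNKT1 and 4.74, 2.62 and 2.64 CPM in BALB/c iNKT2 (log2 change -2.33), and 19 and 16.7 CPM against 3.63, 2.53 and 3.17 CPM in SKG (log2 change -2.51). The start region of Socs1, chr16:10784950-10785699, was the most accessible of the gene's regions. Its levels were 136 and 134 CPM in BALB/c iNKT1 and 89.6, 105 and 119 CPM in BALB/c iNKT2, a change that missed the threshold (log2 change -0.37, adjusted p = 0.049).

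Socs2, which restrains growth hormone and Stat5 signals, had 1 called fall, at chr10:95439099-95439398, in both genotypes. This intergenic region 22068 bp before the start had 1.46 and 1.01 CPM in BALB/c iNKT1 and at most 0.124 CPM in BALB/c iNKT2. SKG iNKT1 had 4.75 and 3.78 CPM, and in SKG iNKT2 the 3 libraries held 3 insertions together against 133 in iNKT1, 100-fold fewer by CPM (95% exact interval 33.5 to 491). Socs3, the inhibitor of the interleukin-6 receptor gp130, had 1 called fall among 18 regions (5.56%, near the share of all regions), present in both genotypes, at chr11:117991646-117992182 in an intron of the neighbour Pgs1. It fell by 2.56 on the log2 scale in BALB/c and by 2.52 in SKG. The region with 2 gamma-activated sites, the printed one among them, at the RefSeq start of Socs3, chr11:117968785-117969638, had 40.2 and 33.8 CPM in BALB/c iNKT1 and 9.88, 10.2 and 11.0 CPM in BALB/c iNKT2. It stayed under 4-fold (log2 change -1.84, adjusted p = 1.1e-07), as it did in SKG (log2 change -1.41, adjusted p = 2.0e-06).

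Cish acts on the interleukin-2 receptor. In BALB/c iNKT2 all 22 of its regions had a negative estimate, 3 were called lower (13.6%) and 11 had an adjusted p under 0.01. Without BALB/c iNKT2 replicate 2 or 3, and with library totals, 1 was called lower. In SKG iNKT2, 12 estimates were negative and 10 positive, none was called, and 6 lower and 2 higher regions had an adjusted p under 0.01. The summed level was 308 and 310 CPM in BALB/c iNKT1 and 190, 151 and 151 CPM in BALB/c iNKT2. In SKG it was 240 and 251 CPM in iNKT1 and 257, 187 and 207 CPM in iNKT2, which overlapped. A called fall lay at chr9:107334216-107334726, in an intron of the neighbour Hemk1, from 50.4 to 12.4 CPM in BALB/c (log2 change -2.02). It was also lower in SKG, from 41.8 to 13.1 CPM (log2 change -1.65, adjusted p = 4.4e-05).

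The genotypes were then compared within each subset. Every T cell of SKG mice carries the mutation, so weaker signalling in the sorted cells cannot be told apart from effects of other SKG cells. In iNKT1 no member region was called, and 1 had an adjusted p under 0.01. Among all regions the calls in SKG iNKT1 were 0.281% higher and 0.732% lower. With an unadjusted p under 0.05 there were 24 member regions, 15.4% against 17.1% of all regions. DESeq2 called 3 of the member regions. Over all 94823 regions it called 366 higher and 770 lower, against 266 and 694 in the main fit. The single region under 0.01, chr10:127662087-127662448, is in an intron of Nab2, 19281 bp after the Stat6 start, and had 17.9 and 18.5 CPM in BALB/c iNKT1 and 11.0 and 9.94 CPM in SKG iNKT1 (log2 change -0.80, adjusted p = 0.0087). Near Socs1 the smallest adjusted p was at chr16:10830800-10831099, with 0.448 and 0.220 CPM in BALB/c iNKT1 and 1.80 and 1.86 CPM in SKG iNKT1 (log2 change 2.38, adjusted p = 0.012). It passed with DESeq2 and with the replicate block within iNKT2 (adjusted p = 0.0021 and 0.0040). At Socs2 the summed level was 89.6 and 81.8 CPM in BALB/c iNKT1 and 137 and 129 CPM in SKG iNKT1. Locus sums were higher in SKG iNKT1 without overlap at 39.0% of genes.

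In iNKT2, 1 member region was called higher and 1 lower in SKG (0.641% each, against 0.252% higher and 4.73% lower over all regions). With an adjusted p under 0.01 alone, 12 were higher (7.69%, against 4.02% of all regions) and 3 lower (1.92%, against 10.1%). Of the 9910 regions that hold a protein-coding start, 8.28% were higher and 2.02% lower by this measure. The labels do not say that the replicate numbers pair the iNKT2 libraries. With the numbers taken as such a block, 36 were higher and 6 lower by this measure, and the share of all regions under 0.01 in that fit was not counted. With the 4-fold demand as well, all regions had 249 higher and 4986 lower calls in that fit, against 239 and 4488 in the main fit. Without one library in turn the higher count ran from 5 to 14, with 5 when BALB/c iNKT2 replicate 3 was left out, 6 without BALB/c iNKT1 replicate 1, BALB/c iNKT2 replicate 2 or SKG iNKT2 replicate 3, and 3 or 4 lower. The median log2 change was 0.32 over the 156 regions, 0.01 over all regions and 0.26 over regions that hold a protein-coding start. With library totals in place of TMM factors the member median was 0.20, that of all regions -0.12. Of the 12 higher regions 4 were at Cish, 3 at Socs1, 2 at Socs2 and 1 each at Stat3, Stat6 and the shared window of Stat5a and Stat5b.

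The called rise was in an intron of Cish, at chr9:107298129-107298462, 2269 bp after the annotated start. BALB/c iNKT1 had 2.36 and 2.51 CPM, SKG iNKT1 had 2.83 and 2.89 CPM, and SKG iNKT2 had 3.30, 3.03 and 2.83 CPM. BALB/c iNKT2 alone was low, with 0.439, 0.741 and 0.206 CPM. The log2 change in iNKT2 was 2.65 ± 0.324 (SE, adjusted p = 3.2e-05), and the subset change was -2.31 ± 0.349 in BALB/c (adjusted p = 3.8e-05, and -1.96 without BALB/c iNKT2 replicate 3) and 0.10 ± 0.323 in SKG (adjusted p = 0.81). The interaction was 2.42 ± 0.480, with an adjusted p of 0.012, just over the threshold. The central 300 bases (chr9:107298146-107298445) are shown because this is the member region with the largest gain in SKG iNKT2. They held 1 gamma-activated site, in capitals.
Cish intron: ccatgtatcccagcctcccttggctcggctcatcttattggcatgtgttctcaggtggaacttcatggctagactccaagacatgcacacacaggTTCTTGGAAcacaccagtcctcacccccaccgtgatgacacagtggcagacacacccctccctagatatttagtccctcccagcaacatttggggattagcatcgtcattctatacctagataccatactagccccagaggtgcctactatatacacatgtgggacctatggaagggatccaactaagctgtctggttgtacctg

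Further Cish regions were higher in SKG iNKT2. At chr9:107306148-107306587, which held a gamma-activated site as well, BALB/c iNKT2 had 8.78, 5.18 and 4.49 CPM and SKG iNKT2 had 14.5, 12.7 and 13.4 CPM (log2 change 1.14 ± 0.229 SE, adjusted p = 0.0020). In iNKT1 the order was the other way, with 6.57 and 8.64 CPM in BALB/c and 3.47 and 5.0 CPM in SKG. At chr9:107312688-107313271, SKG iNKT2 had 17.6, 14.0 and 17.1 CPM against 8.31, 7.17 and 7.21 CPM in BALB/c iNKT2 (log2 change 1.10, adjusted p = 1.1e-04). The region at the RefSeq start with the 2 tandem pairs printed above, chr9:107296417-107297056, had 15, 15.5 and 14.6 CPM in BALB/c iNKT2 and 22.9, 19.5 and 21.6 CPM in SKG iNKT2 (log2 change 0.51, adjusted p = 0.0094). None of these overlapped between the iNKT2 groups.

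The region over the annotated Cish start, chr9:107295600-107296250, had genotype estimates of opposite sign in the subsets. BALB/c iNKT1 had 32.2 and 40.1 CPM and SKG iNKT1 had 17.8 and 20.9 CPM, while BALB/c iNKT2 had 31.1, 28 and 27.3 CPM and SKG iNKT2 had 52.4, 32.4 and 40.9 CPM. SKG libraries were lower in iNKT1 (log2 change -0.90, adjusted p = 0.016) and higher in iNKT2 (log2 change 0.54, adjusted p = 0.020), each short of the threshold. The interaction was 1.44 ± 0.257 (SE, adjusted p = 0.0067), and its adjusted p was 0.024 to 0.061 when any one iNKT1 library was left out. Only 3 of the 156 regions reached an adjusted p under 0.01 in the interaction, all positive (1.92%, against 0.446% of all regions higher and 0.479% lower), and none was called at 4-fold (0.189% of all regions called higher and 0.341% lower). With an unadjusted p under 0.05 there were 40 (25.6%, against 19.8%). The 300 bases before the annotated start (chr9:107295726-107296025) lie in this region and are printed for that reason. The capitals mark a palindrome of TTC and GAA with 4 bases between and then a T-box motif, and no gamma-activated site was found in this window.
Cish upstream: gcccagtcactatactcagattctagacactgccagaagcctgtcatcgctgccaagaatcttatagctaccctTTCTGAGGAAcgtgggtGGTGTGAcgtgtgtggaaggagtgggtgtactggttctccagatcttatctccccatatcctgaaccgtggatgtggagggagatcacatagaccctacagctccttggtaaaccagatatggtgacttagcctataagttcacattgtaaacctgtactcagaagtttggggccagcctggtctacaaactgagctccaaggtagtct

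Socs1 held the gain with the smallest adjusted p. The 1901 bp region over the body of Socs1, chr16:10781915-10783815, had 85.1 and 86.4 CPM in BALB/c iNKT1 and 66.3 and 74.8 CPM in SKG iNKT1. It had 34.7, 35.2 and 31.0 CPM in BALB/c iNKT2 and 68.2, 60.4 and 72.8 CPM in SKG iNKT2. SKG iNKT2 was therefore at the level of SKG iNKT1 (log2 change -0.07, adjusted p = 0.66), while BALB/c iNKT2 was below BALB/c iNKT1 (log2 change -1.35, adjusted p = 3.8e-07). SKG against BALB/c iNKT2 gave 1.00 ± 0.116 (SE, adjusted p = 2.1e-05), and the interaction 1.28 ± 0.182 (SE, adjusted p = 0.0020, and 0.015 to 0.027 when any one iNKT1 library was left out). At chr16:10788919-10789241, upstream of the start, the genotypes differed the other way, with 6.62, 5.87 and 5.61 CPM in BALB/c iNKT2 and 2.73, 2.34 and 2.56 CPM in SKG iNKT2 (log2 change -1.24, adjusted p = 3.7e-04).

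Socs2 held the called loss. The intergenic region chr10:95447952-95448271, 30931 bp before the start, had 3.32, 3.62 and 3.50 CPM in BALB/c iNKT2 and 0.208, 0.643 and 0.337 CPM in SKG iNKT2 (log2 change -3.18 ± 0.345 SE, adjusted p = 1.1e-05). In iNKT1 the levels were 1.97 and 2.20 CPM in BALB/c and 0.899 and 1.28 CPM in SKG (log2 change -0.93, adjusted p = 0.23). The region was thus lowest in SKG iNKT2. The replicate block within iNKT2 took its interaction past the threshold (log2 change -2.27, adjusted p = 0.0049, against 0.030 without it). Its central 300 bases (chr10:95447962-95448261) are printed as the largest loss of the 9 genes, with an NFAT core (TGGAAA) and a palindrome of TTC and GAA with 4 bases between in capitals.
Socs2 upstream region: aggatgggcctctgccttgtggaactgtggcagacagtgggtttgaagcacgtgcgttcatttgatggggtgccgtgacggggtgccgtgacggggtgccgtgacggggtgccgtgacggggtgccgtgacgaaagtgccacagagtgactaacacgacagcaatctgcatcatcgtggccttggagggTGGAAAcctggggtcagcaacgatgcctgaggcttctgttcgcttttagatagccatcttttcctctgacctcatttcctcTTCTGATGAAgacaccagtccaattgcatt
The start region of Socs2 with its tandem pair, chr10:95416467-95417522, went up instead. BALB/c iNKT2 had 14.8, 18.9 and 22.7 CPM and SKG iNKT2 had 25, 42.8 and 41.8 CPM (log2 change 0.96 ± 0.191 SE, adjusted p = 0.0019). In iNKT1 the estimate was 0.79 (44.0 and 38.7 CPM in BALB/c, 75.9 and 67.3 CPM in SKG, adjusted p = 0.061).

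**Figure D4:**
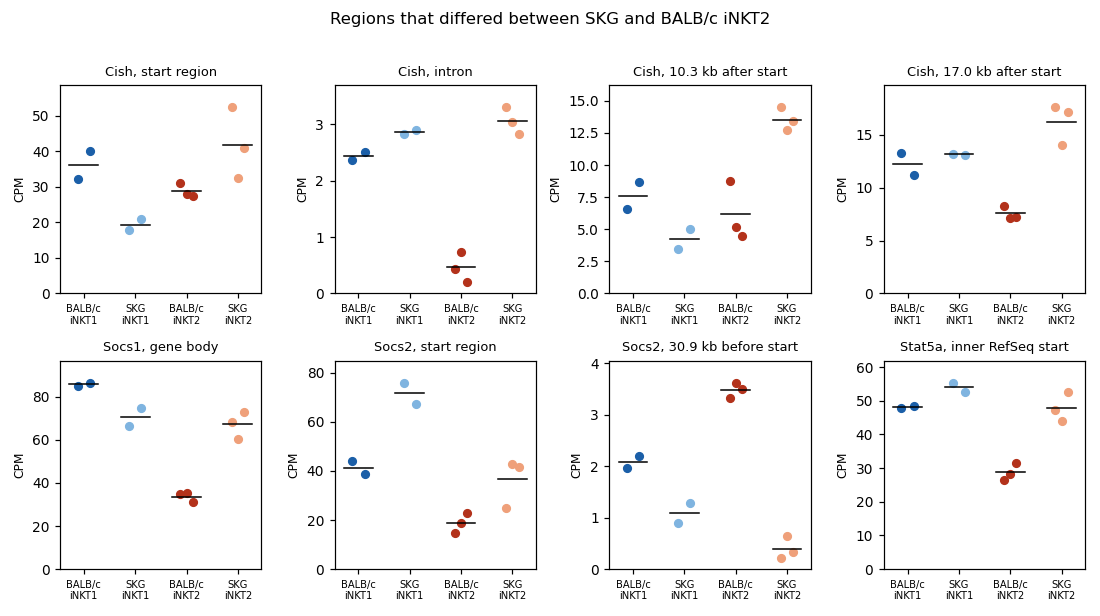
CPM (y axis, from 0) of 8 regions in each library (points) of the 4 groups (x axis), with the group mean as a bar. In the Cish intron the BALB/c iNKT2 libraries lie at 0.206 to 0.741 CPM and the other groups at 2.36 to 3.30 CPM, and in the region far upstream of Socs2 the SKG iNKT2 libraries are the lowest.

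Socs3 had no region with an adjusted p under 0.01 between SKG and BALB/c iNKT2. Its smallest value was 0.012, at chr11:117986605-117987429 in the neighbour Pgs1 (10.1 CPM in all 3 BALB/c libraries, and 17.1, 14.4 and 12.9 CPM in SKG, log2 change 0.55). Stat4 had none either. Its smallest adjusted p was 0.017, at chr1:52011298-52011616 (log2 change 0.58), and the median over its 23 regions was 0.18. For Stat3, Stat5a and Stat6 the gains lay at or close to starts. Such gains were common at starts, with 8.28% of all regions that hold a protein-coding start higher, against 4.02% of all regions. The region at the inner RefSeq start of Stat5a, chr11:100859813-100860592, had 26.6, 28.2 and 31.5 CPM in BALB/c iNKT2 and 47.2, 43.9 and 52.7 CPM in SKG iNKT2 (log2 change 0.73 ± 0.117 SE, adjusted p = 3.1e-04). The Stat3 start region had 96.8, 98.8 and 96.1 CPM in SKG iNKT2, above each BALB/c iNKT2 library (log2 change 0.45, adjusted p = 0.0079). In iNKT1 both were close to equal between the genotypes, with log2 changes of 0.17 and -0.04. Summed over the locus, Stat3, Socs1 and Socs2 were higher in SKG iNKT2 without overlap and none was lower (background 37.8% higher and 9.16% lower).

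Other genes of the pathway were counted in the same windows. The 24 genes, among them the 4 Jak kinases, Socs4 to Socs7, the Pias genes, 5 phosphatases or adaptors and 5 targets such as Pim1 and Bcl2l1, had 420 regions. In BALB/c iNKT2, 27 were higher and 24 lower than in iNKT1 (6.43% and 5.71%, against 15.5% and 6.36% of all regions). The SKG numbers were 26 and 21 (6.19% and 5.0%, against 10.2% and 6.96%). Between SKG and BALB/c iNKT2, 1 was higher and 5 were lower (0.238% and 1.19%, against 0.252% and 4.73% of all regions). With an adjusted p under 0.01 alone 33 of the 420 were higher and 10 lower, beside 4.02% and 10.1% of all regions. Such gains were thus not particular to the 9 genes, where 12 of 156 regions were higher. In the interaction 2 were called, at Jak1 and Tyk2, both positive (0.476%, against 0.189% of all regions called higher). The rise called in SKG iNKT2 was at Bcl2l1, a survival gene downstream of Stat5, and the called falls were at Socs5, Socs7, Ptpn1, Ptpn6 and Ptpn11.

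Over the 10 libraries, the centred log2 locus sums of each member were compared with those of 15926 protein-coding genes that have 3 or more regions and share none with it. Ifitm6 and Ifitm3 were closest to Stat4 (root mean square difference of 0.108 and 0.109). Tmem184b and Foxj1 were closest to Cish (0.0522 and 0.0569), Serinc4 and Ell3 to Socs1 (0.0338 and 0.0344), and Akr1c18 and Gm5127 to Socs2 (0.117 and 0.122). Hils1 and Sgca were closest to Socs3 (0.0483 each), Rbm39 and Rplp1 to Stat3 (0.0441 and 0.0534), and Marcksl1 and Lcn4 to Stat6 (0.0311 and 0.0368). Bcl7a and Krt24 were closest to Stat5a (0.0664 and 0.0925), and Stac2 and Rpl19 to Stat5b (0.0631 and 0.0720).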

How the data were processed

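Accessibility was measured by ATAC-seq in 10 libraries of sorted thymic iNKT cells. Following the published methods, the authors had aligned reads to mm10 with bowtie (Bowtie 1.0 in the submitters' processing notes), removed duplicates with Picard, called summits with MACS2 on short fragments, merged them, dropped chromosome Y and the blacklist, and tallied insertions per region. The deposited table was named as normalized, but its values were whole numbers with unequal totals and were treated as raw counts of insertions. Table starts were taken as 0-based and are printed 1-based.

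Genes came from GENCODE M21, and sequences and RefSeq starts from GRCm38.p6. The table has no missing member: each of the 9 genes had regions, and no region was filtered out. The members, gene lists, motifs and alternatives were chosen with earlier results of these data known.

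With edgeR 4.0.16 (R 4.3.3), TMM factors and 1 mean per group were fitted to all 10 libraries, and 5 contrasts were tested by quasi-likelihood F tests, namely the subset change within BALB/c and within SKG, the genotype change within iNKT1 and within iNKT2, and the interaction of both factors. P-values were adjusted by Benjamini-Hochberg over 94823 regions. SEs are derived from the F statistic. The script was tested on simulated data. Ratios that rest on 3 or fewer insertions in a group are given with exact 95% intervals, which cover counting error only. Alternatives were DESeq2 1.42.0, limma 3.58.1 voom with TMM or quantile normalization, library totals, omission of the regions with the fewest insertions (mean under 36.2), other thresholds and windows, 2 replicate blocks and the omission of each library.

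Regions were named by rule: the start region, the most accessible region, and, for each contrast, the called region of largest change in each direction or else the one with the smallest adjusted p. This named 33 regions, and further ones were chosen after their values were seen. Same-numbered BALB/c and SKG iNKT2 libraries deviated together from their group means (r = 0.517, 0.181 and 0.224), although libraries 2 and 3 also correlated across numbers (0.201 and 0.308). The numbers were therefore taken to pair them in the alternative fits with a replicate block only, and the main fit had no pairing. Some genes are not reported here.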

Additional observations from a re-analysis of the deposited data

Results flagged for a closer look

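In 3 of the 156 regions the genotype change differed between iNKT2 and iNKT1 by the interaction test. At the Cish start region, chr9:107295600-107296250, the interaction was 1.44 on the log2 scale. At the body of Socs1, chr16:10781915-10783815, it was 1.28. At the Nab2 intron in the Stat6 window, chr10:127662087-127662448, it was 1.20 (adjusted p = 0.0057), where SKG libraries were lower in iNKT1 and had 18.4, 17.6 and 18.3 CPM against 14.2, 13.7 and 13.2 CPM in BALB/c iNKT2. None of the 3 passed when any one of the 4 iNKT1 libraries was left out, where the adjusted p of the Cish region was 0.024 to 0.061, of the Socs1 region 0.015 to 0.027 and of the Nab2 region 0.031 to 0.045. The Cish region also missed the threshold with library totals (adjusted p = 0.024), limma voom with TMM factors (0.011) or quantile normalization (0.049), omission of the regions of low mean insertions (0.013), and without BALB/c iNKT2 replicate 2 (0.028), BALB/c iNKT2 replicate 3 (0.028) or SKG iNKT2 replicate 3 (0.016). The Nab2 region missed it with library totals (0.019), quantile normalization (0.016), and without BALB/c iNKT2 replicate 2 (0.026) or 3 (0.025) or SKG iNKT2 replicate 2 (0.011) or 3 (0.016). The Socs1 region kept an adjusted p under 0.01 in these fits (0.0017 to 0.0079). With the replicate block within iNKT2 their adjusted p were 7.6e-06, 7.4e-07 and 1.3e-04, and 14 member regions with a positive and 1 with a negative interaction had an adjusted p under 0.01. The share of all regions under 0.01 in that fit was not counted. With the 4-fold demand as well, the interaction calls over all regions were 453 higher and 1081 lower in that fit, against 179 and 323 in the main fit. No group had the 4 samples needed to look for outlying libraries.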

How the results depend on the processing

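The called numbers in the subset comparisons were stable under most settings. For BALB/c iNKT2 against iNKT1 (29 called), leaving out regions of low mean insertions gave 17, an adjusted p under 0.05 with 2-fold gave 62, and an adjusted p under 0.01 with no fold gave 88. For SKG (20 called) the last 2 settings gave 55 and 57. Omitting 1 library gave 24 to 31 in BALB/c and 17 to 20 in SKG. Library totals moved the median of all regions from 0.06 to 0.34 in BALB/c and from 0.14 to 0.32 in SKG, and the BALB/c calls to 9 higher and 18 lower. Quantile normalization gave 2 and 27. Over all 94823 regions the BALB/c calls were 14725 higher and 6029 lower in the main fit. They were 17104 and 4750 with library totals, and 9042 and 8966 with quantile normalization.

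Between SKG and BALB/c iNKT1 (0 called) DESeq2 gave 3, a fit of these groups alone 3, the replicate block across all libraries 1, the replicate block within iNKT2 3, the 0.05 and 2-fold thresholds 7, no fold threshold 1, and omitting 1 library 0 to 2 (2 without replicate 1 of BALB/c iNKT2 or of SKG iNKT2). Over all regions the main fit had 266 higher and 694 lower calls here. DESeq2 had 366 and 770, the fit of these groups alone 368 and 1088, and the replicate block within iNKT2 370 and 1119. Between SKG and BALB/c iNKT2 (2 called) quantile normalization gave 7, the 0.05 and 2-fold thresholds 9, no fold threshold 15, the 25 kb window 1, and omitting 1 library 2 or 3. Over all regions quantile normalization moved the calls of this comparison from 239 to 1173 higher and from 4488 to 3469 lower. For the interaction (0 called) DESeq2 gave 2, quantile normalization 1, the replicate block 1, the replicate block within iNKT2 4, the 0.05 and 2-fold thresholds 7, no fold threshold 3, and omitting 1 library 0 or 1 (1 without BALB/c iNKT2 replicate 1 or 2, or SKG iNKT2 replicate 2). The cause of these moves was not tested. The blocks changed no other called number by over 1.5 times.

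Of 1345 values of named regions under alternatives, 1306 kept their direction and their side of the threshold, 9 lost a call, 30 gained one and 0 reversed. The lost calls were at chr11:100804374-100804847 in Stat5b, chr10:127658153-127658473 in Stat6 and chr9:107298129-107298462 in Cish, the last only for BALB/c iNKT2 against iNKT1 without BALB/c iNKT2 replicate 3 (log2 change -1.96). With 2 iNKT1 libraries a group and insertions in listed regions as the sole measure of depth, changes of regions near 1 CPM are the least certain.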
